A study of Homo sapiens with 3 samples.

Results

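The miR-191 and miR-425 cluster consists of the hairpins MIR191 and MIR425, which lie close together in an intron of the gene DALRD3. Its members were taken by name: hsa-miR-191-5p, hsa-miR-425-5p and hsa-miR-425-3p, 3 of the 1149 mature miRNAs in the deposited table. miR-191-3p, from the remaining arm of MIR191, is given beside them for comparison. Small RNA sequencing measured mature miRNAs in clones of the established human cell line CAL-27, derived from a tongue squamous cell carcinoma. There were 3 groups with 1 library each. RR was the radioresistant group, given X-rays at 2 Gy a day in 2 cycles of 5 days with 2 weeks of recovery after each cycle, then cloned from single cells. Mock, by the series' design text, was given a single dose of 2 Gy. CC was the untreated control. All groups derive from parental CAL-27 cells, and whether a library held 1 clone or several is not stated in the labels. The treatment tag that names a 2 Gy dose stands on RR and the tag that names irradiation alone stands on Mock, so that the labels cannot settle whether these libraries are exchanged. The deposited labels were kept: every value and every comparison below is that of the library so labelled. With 1 library per group there is no replicate check of any difference and no p-value is given.

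A miRNA gene is transcribed as part of a longer RNA, here on the strand of its host gene, and its hairpin is cut out by Drosha in the nucleus and by Dicer in the cytoplasm. The resulting duplex holds a strand from each arm, 5p and 3p. As a rule 1 strand is kept by an Argonaute protein, where its seed, bases 2 to 8, pairs with target mRNAs, and the other is degraded. miR-191-5p is abundant in many human tissues and tumours and is widely used as a reference in quantitative PCR. DALRD3, the host gene, encodes a protein needed for a methylation of arginine tRNAs.

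The sequences listed by the authors for the 4 arms are shown because they tell the members apart, with the seed in capitals.
miR-191-5p: cAACGGAAtcccaaaagcagctg
miR-191-3p: gCTGCGCTtggatttcgtcccc
miR-425-5p: aATGACACgatcactcccgttga
miR-425-3p: aTCGGGAAtgtcgtgtccgccc
The 4 seeds differ from each other. No other miRNA of the table shared any of them, and none lay within 2 mismatches of an arm over 18 or more bases, so that the reads of these arms had no close competitor in the table. miR-191-5p and miR-425-5p are 23 bases long, with a GC content of 52.2% and 47.8%. The 3p arms are 22 bases long and both have a GC content of 63.6%. miR-425-5p and miR-425-3p begin with A, miR-191-5p with C and miR-191-3p with G.

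The hairpins, from RefSeq on GRCh38.p14, are shown to place the arms, which are in capitals.
MIR191: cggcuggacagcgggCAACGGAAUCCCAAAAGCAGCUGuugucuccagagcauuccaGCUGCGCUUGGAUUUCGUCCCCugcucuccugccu
MIR425: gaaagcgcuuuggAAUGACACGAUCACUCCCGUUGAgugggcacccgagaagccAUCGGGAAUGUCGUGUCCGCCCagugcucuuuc
MIR191 spans chr3:49020618-49020709 and MIR425 chr3:49020148-49020234, both on the minus strand, with 383 bases between them. miR-191-5p occupies positions 49020672 to 49020694 and miR-191-3p positions 49020631 to 49020652. miR-425-5p matched its hairpin at 49020199 to 49020221, and miR-425-3p lies at 49020159 to 49020180. DALRD3 spans 49015488 to 49022293 on the same strand in GENCODE release 29. Of its 15 annotated transcripts 4 span the hairpins, and in each of these both hairpins lie within intron 1 and in no exon. In DALRD3-201 that intron is 2527 bases long, and MIR191 begins 137 bases and MIR425 612 bases from its 5′ end, as drawn in the map of the intron.

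**Figure D1:**
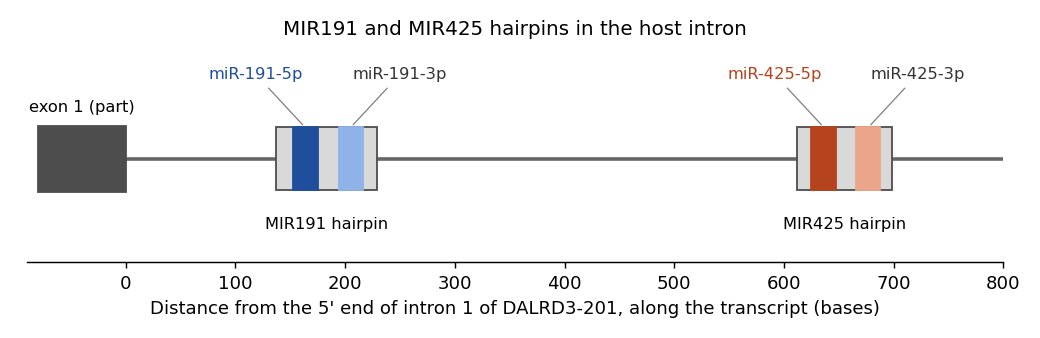
The horizontal axis gives the distance in bases from the 5′ end of intron 1 of DALRD3-201 along the transcript; grey boxes are the hairpins, coloured boxes the mature arms and the dark box the end of exon 1. MIR191 (bases 137 to 228) lies upstream of MIR425 (bases 612 to 698), and the intron continues to base 2527.

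The per-million scale implies library totals of 10473400 reads for RR, 10632785 for Mock and 10769990 for CC, and the listed miRNAs made up 20.5% of these in RR, 23.2% in Mock and 16.3% in CC. Values are in rpm, reads per 1000000 reads of that total. Intervals are exact 95% intervals for counting error alone and take reads as independent. PCR copies were not told apart by molecular identifiers, so the intervals may be too narrow. The level of 3 reads, taken as the floor, was 0.286 rpm in RR, 0.282 rpm in Mock and 0.279 rpm in CC. All 8 listed markers of squamous epithelium had a mean of 10 rpm or more, and their summed level was 45502 rpm in RR, 30009 rpm in Mock and 39032 rpm in CC. The lower sum in Mock is that of miR-205-5p, at 29651 rpm in RR, 14174 rpm in Mock and 25945 rpm in CC. In Mock 7 of the 8 stood above CC, and the median log2 ratio of the 8 was 0.39. The median of all 208 miRNAs with such a mean was 0.28, and -0.012, -0.22 and -0.058 under 3 other library scalings. The count of 7 therefore depends on the library scale.

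miR-191-5p was abundant and close to level across the libraries. It stood at 1118 rpm in RR (95% Poisson interval 1098 to 1138), 1146 rpm in Mock (1126 to 1167) and 915 rpm in CC (897 to 933). These levels rest on 11706 reads in RR, 12190 in Mock and 9853 in CC. Mock and RR overlapped in their counting intervals and both lay above CC on this scale. Its rank among the 1149 miRNAs was 32 in RR, rank 28 in Mock and rank 30 in CC. It gave 0.545% of the miRNA reads of RR, 0.495% of those of Mock and 0.563% of those of CC. By that share the order was therefore turned, with CC highest and Mock lowest.

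miR-425-5p was far less abundant, with its lowest level in the library labelled Mock. It stood at 16.5 rpm in RR (14.1 to 19.2), 11.9 rpm in Mock (9.96 to 14.2) and 15.7 rpm in CC (13.4 to 18.2), from 173 reads in RR, 127 in Mock and 169 in CC. The intervals of RR and CC overlapped over most of their width, and that of Mock touched only their lower ends. Its rank was 180 in RR, 196 in Mock and 167 in CC.

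miR-425-3p was near the limit of detection. It had 7 reads in RR, 9 in Mock and 2 in CC, that is 0.668 rpm in RR (0.269 to 1.38), 0.846 rpm in Mock (0.387 to 1.61) and 0.186 rpm in CC (0.0225 to 0.671). CC was below the floor of 3 reads, and all 3 intervals overlapped. miR-191-3p, the sparse arm of the neighbouring hairpin, stood higher at 6.68 rpm in RR (5.21 to 8.44), 5.64 in Mock (4.31 to 7.26) and 5.94 in CC (4.58 to 7.59), again with overlapping intervals. Taken as a sum, the 3 members came to 1135 rpm in RR, 1159 rpm in Mock and 931 rpm in CC, of which miR-191-5p gave 98.5% in RR, 98.9% in Mock and 98.3% in CC.

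**Figure D2:**
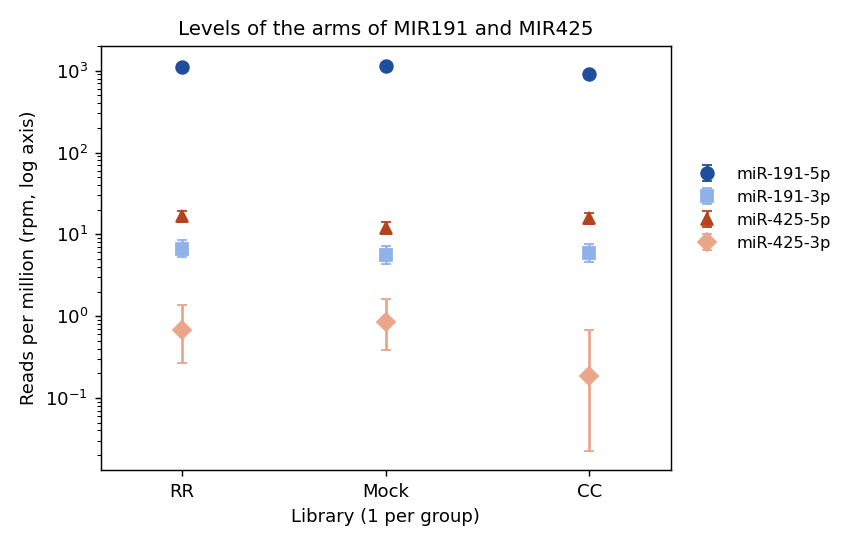
Points are the level of each arm in rpm on a log axis in the RR, Mock and CC libraries, 1 library per group, and bars are exact 95% Poisson intervals from the reads. miR-191-5p lies between 915 and 1146 rpm, miR-425-5p between 11.9 and 16.5 rpm, and the 3p arms below both.

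RR over CC sets the library labelled radioresistant against the untreated one, and no member differed by 2-fold among those with a mean of 10 rpm or more. That filter left 2 of the 3 members, miR-191-5p and miR-425-5p, and 208 of all miRNAs. Neither was counted, on the log2 scale after adding 1 rpm, where 1.44% of the 208 were past 2-fold, 0.962% higher and 0.481% lower. That is 2 higher and 1 lower, which became 0 and 2 under each of 3 other library scalings. miR-191-5p was 1.22-fold higher in RR (1.19 to 1.26), a log2 ratio of 0.29 beside a median of 0.36 over the 208 miRNAs. Relative to that median it lay at -0.068. Its direction turned under the 3 other library scalings, at -0.095, -0.046 and -0.029, where the median of all miRNAs was between -0.021 and 0.043. miR-425-5p had a ratio of 1.05 (0.847 to 1.31), an interval that includes 1, and its log2 ratio of 0.070 lay -0.29 from the median and turned to -0.29, -0.25 and -0.23 under the same scalings. Of the 208, 122 had a larger log2 ratio than miR-191-5p and 173 a larger one than miR-425-5p. miR-425-3p had a ratio of 3.60 with an interval of 0.685 to 35.5, so that a difference was not detectable at 7 reads against 2.

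Mock over CC sets the library labelled as singly exposed against the untreated one. Here miR-191-5p lay near the median of all miRNAs and miR-425-5p below it. Neither was past 2-fold, where 15.9% of the 208 were, 12% higher (25 miRNAs) and 3.85% lower (8 miRNAs). miR-191-5p was 1.25-fold higher in Mock (1.22 to 1.29), a log2 ratio of 0.33 beside a median of 0.28. miR-425-5p had 0.761 times the level of CC (0.600 to 0.964), a log2 ratio of -0.37, which is -0.65 from the median. Of the 208, 99 had a larger log2 ratio than miR-191-5p and 165 a larger one than miR-425-5p, so that by rank miR-425-5p lay no lower here than in RR over CC. miR-425-3p had a ratio of 4.56 (0.943 to 43.4), with 9 reads against 2 and an interval that includes 1.

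The split of all miRNAs depended on the library scale. With median-ratio scaling it became 10 higher and 18 lower, 10 and 19 when totals left out the 10 leading miRNAs, and 7 and 31 per listed miRNA read, while the median, 0.28 as deposited, stood at -0.012, -0.058 and -0.22. The direction of miR-191-5p in Mock over CC turned with it, at log2 ratios of 0.023, -0.024 and -0.19. That of miR-425-5p did not, at -0.65, -0.69 and -0.84.

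RR over Mock sets the library labelled as repeatedly exposed against that labelled as singly exposed. Again neither member was past 2-fold, where 13% of the 208 were, 8.17% higher (17 miRNAs) and 4.81% lower (10 miRNAs), a split that became 25 and 8 per listed miRNA read. miR-191-5p had a ratio of 0.975 with an interval of 0.950 to 1.00, and its log2 ratio of -0.037 became 0.14 per listed miRNA read. miR-425-5p was 1.38-fold higher in RR (1.09 to 1.75), a log2 ratio of 0.44 beside a median of 0.065, and between 0.36 and 0.60 under the scalings tried and without the GC trend. miR-425-3p had a ratio of 0.790 (0.250 to 2.38).

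**Figure D3:**
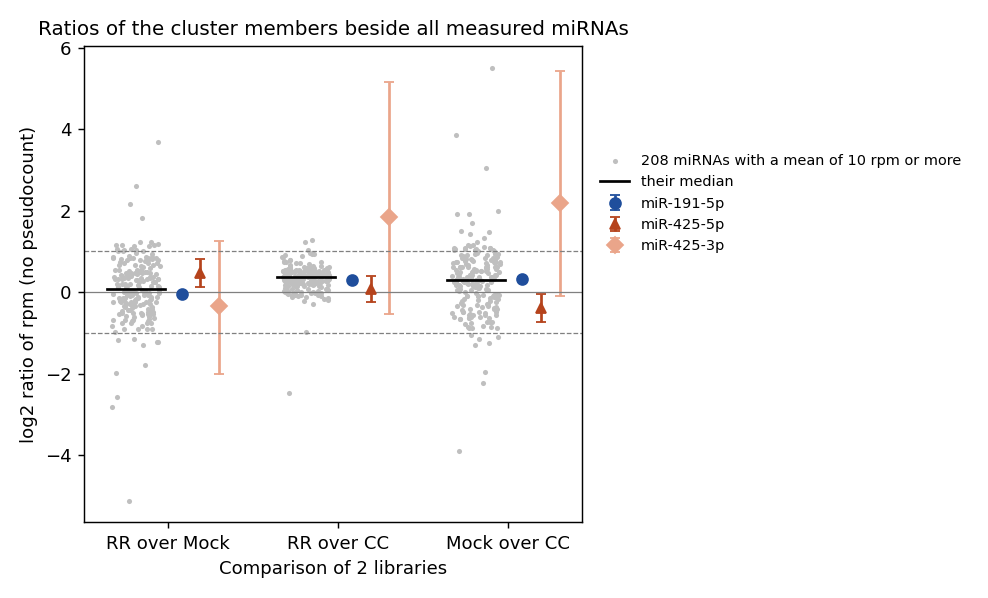
Grey points are log2 ratios of rpm, without a pseudocount, of the 208 miRNAs that averaged at least 10 rpm, black lines their medians, coloured points the 3 members with exact 95% intervals for counting error, and dashed lines 2-fold. miR-191-5p lies close to the median in each comparison, and the intervals of miR-425-3p include 0 throughout. The point of miR-425-5p lies below the median in Mock over CC and in RR over CC, and above it in RR over Mock.

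Ratios to the library labelled Mock followed the GC content of the miRNA. In Mock over CC the median log2 ratio was 0.65 for the 80 miRNAs with the lowest GC content, 0.28 for the next 65 and -0.29 for the 63 with the highest. Both miR-191-5p and miR-425-5p fell in the middle group, and with a linear GC trend removed their log2 ratios were 0.39 and -0.43 beside a median of 0.32. The trend in Mock over CC falls with GC content, and miR-191-5p has a higher GC content than miR-425-5p. Removing the trend could therefore only widen the difference between them. The part of GC content in that difference was not tested. Markers of blood cells, 6 of the 7 listed being analysed here, also moved with this library: their summed level was 12.3 rpm in RR, 410 rpm in Mock and 9.56 rpm in CC, mostly miR-486-5p. In RR and CC miR-486-5p had 120 and 94 reads and miR-451a 8 in each, miR-142-3p and miR-150-5p had at most 1, and miR-144-3p and miR-142-5p were at 0. Markers of mesenchyme, 3 of the 5 listed being analysed here, summed to 6.49 rpm in RR, 5.64 rpm in Mock and 6.41 rpm in CC, mostly miR-143-3p. Among them miR-199a-5p was highest in Mock, with 0 reads in RR, 12 in Mock and 2 in CC. The other 2 were lowest there, miR-145-5p with 2, 1 and 5 reads. The listed markers of endothelium summed to 81.9, 66.9 and 55.2 rpm in the same order and that of liver to 2.96, 5.45 and 4.46 rpm. Those of muscle, mostly miR-1-3p, summed to 408 rpm in RR, 345 rpm in Mock and 341 rpm in CC. Among them miR-206 moved with the library labelled Mock, at 3.63 rpm in RR, 25.5 rpm in Mock and 1.76 rpm in CC. The part of these markers in the level of miR-425-5p was not tested.

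Within a library the ratio of miR-191-5p to miR-425-5p is free of the library scale, and it was highest in the library labelled Mock. There were 67.7 reads of miR-191-5p per read of miR-425-5p in RR (58.2 to 79.1), 96.0 in Mock (80.6 to 115) and 58.3 in CC (50.1 to 68.3). The interval of Mock lay above those of the other libraries, which overlapped each other. The ratio in RR was 0.705 times that in Mock (exact conditional interval 0.555 to 0.893). RR over CC was 1.16 (0.932 to 1.45), an interval that includes 1. The ratio in Mock was 1.65 times that in CC (1.30 to 2.09). These intervals compare libraries and not conditions.

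Other hairpins that lie together gave a scale for such differences. Each hairpin was represented by its more abundant arm, if that arm came from 1 hairpin in RefSeq and had a mean of 10 rpm or more. Of these, 26 other pairs lay within 10 kb of each other on 1 strand, a set chosen after the values were seen, in which a hairpin can enter several pairs. The mean level of miR-191-5p was 72.0 times that of miR-425-5p, beside a median of 3.59 times over the other pairs, and 1 of the 26 had a larger ratio, miR-200c-3p over miR-141-3p at 532 times. In Mock over CC the log2 ratios of miR-191-5p and miR-425-5p differed by 0.69, beside a median difference of 0.27, and 3 of the 26 pairs differed by more. In RR over CC they differed by 0.22, beside 0.18, and 11 pairs by more. In RR over Mock they differed by 0.47, beside 0.27, and 8 pairs by more.

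**Figure D4:**
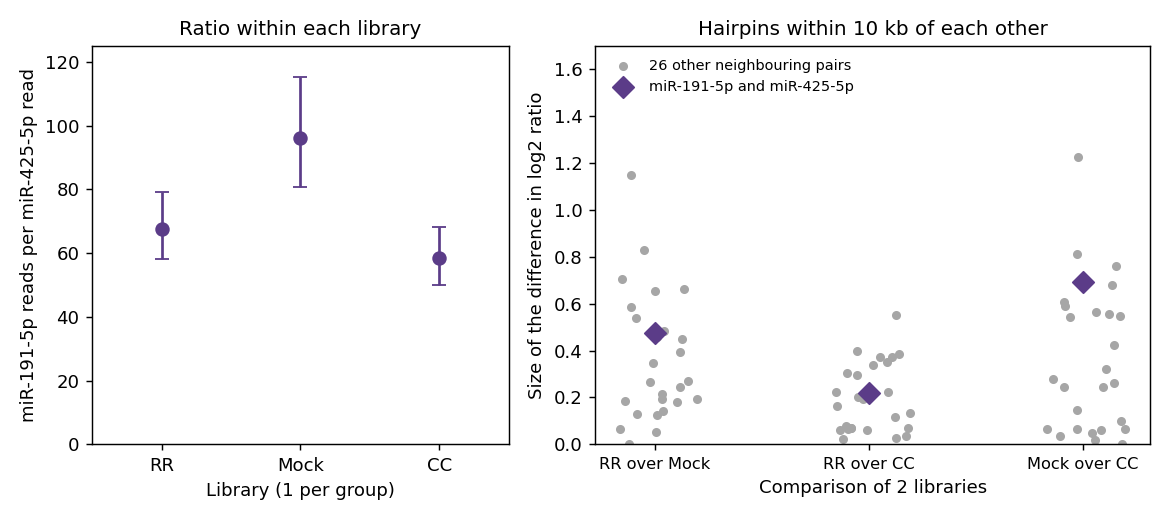
Left, reads of miR-191-5p per read of miR-425-5p in the RR, Mock and CC libraries with exact 95% intervals; right, the size of the difference between the log2 ratios of neighbouring hairpins in each comparison, with 26 other pairs in grey and the cluster as a diamond. The ratio is 67.7 in RR, against 96.0 in Mock and 58.3 in CC; 3 of 26 pairs lie above the cluster in Mock over CC.

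The 5p arm gave nearly all reads of both hairpins in every library. For MIR191 its share was 99.4% in RR (Clopper-Pearson interval 99.2% to 99.5%), 99.5% in Mock (99.4% to 99.6%) and 99.4% in CC (99.2% to 99.5%). For MIR425 it was 96.1% in RR (92.2% to 98.4%), 93.4% in Mock (87.8% to 96.9%) and 98.8% in CC (95.8% to 99.9%). The MIR191 shares agree within counting error, and the MIR425 shares have intervals that overlap between all libraries. Read as a ratio, miR-425-5p had 24.7 reads per read of miR-425-3p in RR (11.7 to 62.4), 14.1 in Mock (7.20 to 31.6) and 84.5 in CC (23.0 to 703). The ratio in Mock was 0.167 times that in CC, with an interval of 0.0174 to 0.831 that excludes 1 but rests on 2 reads of miR-425-3p in CC. RR over Mock was 1.75 (0.562 to 5.68) and RR over CC 0.292 (0.0293 to 1.57), both with intervals that include 1. Across the 117 hairpins whose arms summed to a mean of 10 rpm or more, 64 were led by the 5p arm and the share of the 5p arm ranged by a median of 1.38 percentage points over the libraries. It ranged by 0.156 points in MIR191, where 96 of the hairpins ranged by more, and by 5.45 points in MIR425, where 28 did.

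miR-191-5p was one of the flattest miRNAs of the table, a property of interest for a miRNA used as a reference in quantitative PCR. Its highest level over its lowest among the 3 libraries was 1.25, and 19 of the 208 miRNAs had a smaller spread, beside a median of 1.63. With median-ratio scaling the spread was 1.09 and 8 miRNAs were flatter. When totals left out the 10 leading miRNAs it was 1.02 and 0 of the 208 were flatter, and per listed miRNA read it was 1.14 and 25 were flatter. miR-425-5p had spreads of 1.38, 1.62, 1.67 and 1.87 on the same 4 scales, with 43, 124, 135 and 149 of the 208 flatter. Counting error widens the spread of a sparse miRNA. miR-425-5p had 127 to 173 reads per library and miR-191-5p 9853 to 12190, more than most of the 208. The ranks by spread therefore do not compare miRNAs at like read numbers.

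Of 14 miRNAs listed as common references in quantitative PCR, 13 had a mean of 10 rpm or more, miR-106a-5p being the exception. The median spread of the 13 was 1.49 on the deposited scale, and 1 of them was flatter than miR-191-5p. That was miR-93-5p, of the MIR25 cluster in MCM7, at 1.19. With median-ratio scaling and when totals left out the 10 leading miRNAs 0 of them were flatter, but per listed miRNA read 6 were, and miR-191-5p lay at the median of the 13, 1.14. The largest spreads were those of miR-103a-3p at 3.24 and miR-16-5p at 2.71, both highest in the library labelled Mock. In RR over CC 0 of the 13 were past 2-fold, beside 1.44% of all 208 miRNAs, and their median log2 ratio was 0.33. In Mock over CC 2 were higher and 0 lower, with a median of 0.52, and in RR over Mock 0 were higher and 2 lower, with a median of -0.19. In either direction these counts are near the 15.9% and 13% of all 208 miRNAs past 2-fold. By direction the shares were 12% higher and 3.85% lower in Mock over CC, and 8.17% higher and 4.81% lower in RR over Mock. Set against the 12 other references within a library, the ratio of miR-191-5p differed between RR and CC by less than 1.5-fold for 12 of 12, and for 9 of 12 in both other comparisons. For miR-425-5p this held for 12 of 12 between RR and CC and for 3 of 12 in both other comparisons, and in Mock over CC its log2 ratio lay below those of all 12, with a median difference of -0.94 and one of -0.11 from the nearest, miR-484. In RR over CC it also lay below those of all 12, with a median difference of -0.26. Of all 208 miRNAs, 79.3% had a larger log2 ratio than miR-425-5p in Mock over CC and 83.2% in RR over CC. From the medians of the 208 it lay at -0.65 and -0.29.

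**Figure D5:**
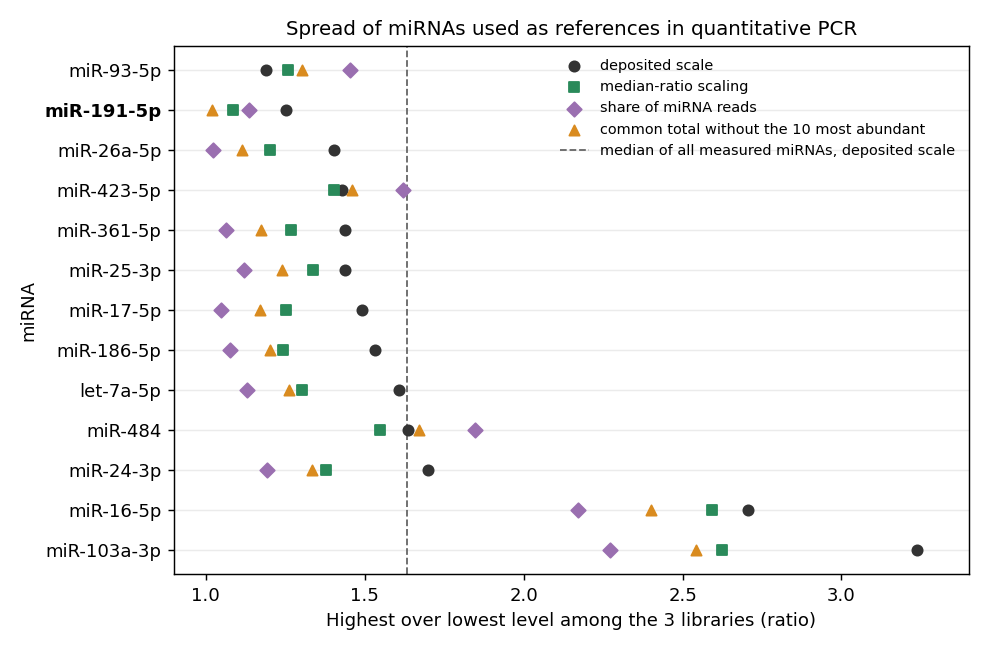
The horizontal axis gives the highest over the lowest level among the 3 libraries for the 13 measured reference miRNAs, on the deposited scale and under 3 other library scalings; the dashed line is the median of the 208 miRNAs on the deposited scale, 1.63. miR-191-5p lies between 1.02 and 1.25, and miR-16-5p and miR-103a-3p lie above 2-fold on each scale.

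The miRNAs with the most similar pattern were sought among the 93 with a mean of 100 rpm or more, by the distance between their log2 ratios in RR over CC and Mock over CC, over 3 libraries alone. For miR-191-5p these were miR-200b-5p at a distance of 0.038, miR-128-3p at 0.061 and miR-200c-3p at 0.081. miR-200c-3p, an epithelial miRNA, stood at 14184 rpm in RR, 13918 rpm in Mock and 11739 rpm in CC. For miR-425-5p they were miR-328-3p at 0.11, miR-99b-5p at 0.23 and miR-423-3p at 0.24, with GC contents of 68.2%, 63.6% and 65.2% against 47.8% in miR-425-5p. miR-328-3p stood at 138 rpm in RR, 99.3 rpm in Mock and 123 rpm in CC. For miR-425-3p they were let-7a-5p at 0.049, miR-378a-3p at 0.081 and miR-27b-3p at 0.084. That position rests on 2 reads in CC and on the added 1 rpm, which exceeds the level of miR-425-3p in each library. With it the log2 ratios were 0.49 in RR over CC and 0.64 in Mock over CC, where the ratios without it were 3.60 and 4.56. These neighbours are therefore not a measured likeness.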

How the data were processed

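Small RNA libraries were made by adapter ligation from total RNA, size-selected after amplification and run on a NovaSeq sequencer, per the labels' protocols. The submitters' processing notes name Bowtie and GRCh38 alone. Trimming, the miRNA reference and the reads that enter the scale were not given in the sources used here. The authors deposited 1 table of values they call TPM, with the sequence and length of each miRNA in other columns. The deposited values behave as RPM: within 0.01 of a read, 100% of them were whole multiples of a step shared by all miRNAs of a library, 0.0955 rpm in RR, 0.0940 rpm in Mock and 0.0929 rpm in CC, which gives the reads and the total behind the scale.

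Columns were joined to libraries by the treatment tag and groups follow the titles. With 1 library per group no count model was fitted, and no gene is called by one. Levels carry exact Poisson intervals, ratios and shares intervals from Clopper-Pearson limits, and ratios of ratios exact conditional intervals. Log2 ratios were taken after adding 1 rpm, and a miRNA counts as past 2-fold only if its mean over the libraries is at least 10 rpm. The rule for named miRNAs gave the 3 members, the other arm of their hairpins, the 3 nearest profiles of each and up to 4 measured miRNAs of each list by mean level. miR-103a-3p, miR-16-5p, miR-93-5p as a reference, miR-106a-5p, miR-484, miR-23b-5p, miR-27b-5p, the cell type markers and the pairs of neighbouring hairpins were named after their values were seen. The result of 1 further list is not reported here. The members and lists were chosen with earlier results of these data known. Sequences of hairpins are from RefSeq (GRCh38.p14), which held mature entries for 3 of the 4 arms, and DALRD3 is from GENCODE release 29 (GRCh38). The computation was tested on simulated reads. Scripts ran in Python 3.11.15 with scipy 1.17.1, numpy 2.4.6, pandas 2.3.3 and, for figures, matplotlib 3.10.9.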

Additional observations from a re-analysis of the deposited data

How the results depend on the processing

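Alternatives were pseudocounts of 0.1 and 10, 3 other library scalings, removal of a linear GC trend, other filters and other thresholds. Of 54 member ratios so recomputed, 41 stayed within the counting interval of the deposited value. For miR-191-5p, RR over Mock moved to -0.12 with median-ratio scaling, 0.14 per listed miRNA read and -0.10 without the GC trend; RR over CC moved to -0.095, -0.046 and -0.029 with median-ratio scaling, per listed miRNA read and with totals that left out the 10 leading miRNAs. Mock over CC of miR-191-5p moved to 0.023, -0.19 and -0.024 under these scalings and to 0.39 without the GC trend. For miR-425-5p, RR over CC moved to -0.29 with median-ratio scaling and -0.25 per listed miRNA read, and Mock over CC to -0.84 per listed miRNA read. A scaling moves all miRNAs of a library nearly alike, so the shifts under the 3 scalings follow from their construction. The GC trend moves each miRNA by its GC content. Mock over CC of miR-425-3p reached 1.03 without the GC trend, within its counting interval. With 1 rpm added, the ratio of miR-425-5p to miR-425-3p became 10.5 in RR, 7.01 in Mock and 14.1 in CC, as the added amount exceeds the level of miR-425-3p.

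Counts of all miRNAs past 2-fold, 27 in RR over Mock, 3 in RR over CC and 33 in Mock over CC, became 16, 1 and 16 with a pseudocount of 10, 50, 7 and 57 with a mean of 1 or more, 57, 8 and 60 with no filter and 11, 0 and 12 with a mean of 100 or more. They were 76, 30 and 96 at 1.5-fold and 5, 1 and 5 at 4-fold. Without the GC trend RR over Mock gave 14 and Mock over CC 21. With 2 to 9 reads, the level of miR-425-3p gave intervals that include 1 in each comparison of libraries. No paired analysis was possible because each group has 1 library, and for the same reason no replicate could be left out.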

Other observations

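Other clusters within introns of protein-coding genes differed in how far their measured arms kept together, and this depended on the comparison. In SMC4, whose intron holds MIR15B and MIR16-2, the 3 arms listed lay close to each other in RR over Mock, with log2 ratios of -0.68 for miR-15b-5p, -0.60 for miR-15b-3p and -0.82 for miR-16-2-3p. In RR over CC they stood at -0.082, -0.19 and -0.089, below the median of 0.36 over all 208 miRNAs, and in Mock over CC at 0.60, 0.41 and 0.73. miR-15b-5p stood at 114 rpm in RR, 183 rpm in Mock and 120 rpm in CC. None of the 3 was past 2-fold in any of these comparisons, where 13%, 1.44% and 15.9% of all 208 miRNAs were. So few arms cannot be told from those shares.

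In MCM7, a subunit of the replicative helicase whose intron holds MIR25, MIR93 and MIR106B, 5 of the 6 listed arms had a mean of 10 rpm or more. Of these 5, 0 were past 2-fold in any comparison, beside the same shares of all 208 miRNAs. miR-25-3p stood at 1272 rpm in RR, 1609 rpm in Mock and 1119 rpm in CC, and miR-93-5p at 993 rpm in RR, 836 rpm in Mock and 854 rpm in CC. Their log2 ratios in Mock over CC were 0.52 and -0.030, beside 0.33 for miR-191-5p and -0.37 for miR-425-5p, and that of miR-106b-3p was -0.067. The remaining measured arms stood at 0.35 and 0.21. In RR over CC the 5 arms ran from 0.18 for miR-25-3p to 0.51 for miR-25-5p. In RR over Mock they ran from -0.34 for miR-25-3p to 0.31 for miR-106b-3p. In AOPEP 2 of 5 listed arms had a mean of 10 rpm or more, miR-23b-3p at 0.13 and miR-27b-3p at 0.56 in Mock over CC. In RR over CC these arms stood at 0.18 and 0.47, and in RR over Mock at 0.042 and -0.087. Below that mean, miR-23b-5p stood at 0.61 in Mock over CC. There miR-27b-5p stood at -0.92, from 111 reads in RR, 52 in Mock and 109 in CC, the opposite direction to miR-27b-3p. GC content, which ratios to Mock followed, was 36.4% to 40.9% in the 3 SMC4 arms and 42.9% to 63.6% in the 5 measured MCM7 arms. Its part in how far arms kept together was not tested. The difference between arms of 1 cluster was not tested, as there is 1 library per group.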
